A study of Mus musculus with 32 samples.

Results

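The peaks described here are RNA sites enriched with an antibody to N6-methyladenosine (m6A), deep inside long genes of mouse embryonic stem cells. Whether each of them holds m6A was not tested. A peak was included where its summit, the base of highest signal, lay in the annotated body of exactly 1 gene, that gene was protein-coding and 100 kb or longer, and the summit fell between 20% and 80% of the body. Over 16 peak lists, 43126 of 496760 peaks met this rule, and 54257 further peaks lay in the first or last 20% of the same genes. Merged by strand where they overlapped by at least 1 bp, the peaks inside the middle of long genes, called deep peaks below, formed 8523 of 80081 regions. They fell in 1599 of 2428 long genes, or 65.9%, which had a median length of 171.8 kb. The rule used gene annotation and position alone and no measured level. The annotation table gives no exons, so a deep peak can be in an intron or in an internal exon, and these cannot be told apart here.

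The cells were C57BL/6 mouse embryonic stem cells labelled as CKO of Mettl14 or of Mettl3, called knockouts below, with the control cells of each line. The labels do not say what CKO stands for, how complete the deletion was, or what else the controls carry. All were grown in serum with LIF at 1000 U/ml, the GSK3 inhibitor CHIR99021 at 3 µM and the MEK inhibitor PD0325901 at 1 µM, which hold mouse stem cells undifferentiated. RNA fragments bound by an m6A antibody were sequenced from chromatin-associated RNA depleted of ribosomal RNA (caRNA) and from polyadenylated RNA (mRNA). The groups were caRNA of Mettl14 knockout, Mettl14 control, Mettl3 knockout and Mettl3 control cells, and mRNA of the same 4, with 2 libraries each. Nothing in the labels says that the libraries of a group came from separate cultures, so a p-value here reflects how far these particular libraries varied, and that variation may be technical.

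METTL3 carries the catalytic site of the main m6A methyltransferase and METTL14 holds the RNA in place. The complex acts on RNA while it is being transcribed, preferentially at adenosines in the sequence GGAC and close relatives of it. In finished mRNA the mark is concentrated near stop codons and in long internal exons. RNA still bound to chromatin also holds introns, which make up most of a long gene's body and are removed before the transcript is exported, so chromatin RNA is where intronic m6A can be read.

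The lists held 37955 to 45241 peaks in caRNA and 16537 to 23380 in mRNA, and read depth is unknown, so a missing peak can mean less m6A, less RNA or fewer reads. The 2 mRNA Mettl14 control lists were the shortest. The 4 caRNA Mettl14 lists write their values with up to 7 significant digits and the other 12 with up to 6. Of the stem cell markers, 9 of 10 had a peak in at least 1 list and 5 (Esrrb, Klf4, Zfp42, Sall4 and Tbx3) in all 16, while Sox2, whose body lies within that of Sox2ot, could not be assigned a peak of its own. Of 20 markers of fibroblasts, neural cells, endoderm and trophoblast, 16 had a peak in at least 1 list and 4 did in all 16, among them Col1a2 and Pdgfrb. A peak is not a measure of expression, and the part of other cells in the results was not tested. Between replicates, 79.9% to 87.9% of deep peaks were shared, against 81.7% to 89.8% of all peaks.

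Sequence could be shown where deep peaks met an annotated internal transcription start of their gene. RefSeq promoter windows (build GRCm38.p6) run from 250 bases before to 50 bases after a start, and 5 such windows inside long genes held the summit of a deep peak on the gene strand in at least 8 lists. They are printed 5′ to 3′ on the gene strand, with GGAC in capitals, because they are the deep peaks found in every caRNA library that lie within such a window.
Stox2: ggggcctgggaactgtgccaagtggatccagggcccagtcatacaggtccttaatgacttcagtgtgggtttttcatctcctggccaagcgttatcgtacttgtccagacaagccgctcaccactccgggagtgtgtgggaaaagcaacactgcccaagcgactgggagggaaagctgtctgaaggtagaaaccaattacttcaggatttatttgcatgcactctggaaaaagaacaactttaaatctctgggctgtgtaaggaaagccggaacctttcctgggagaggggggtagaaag
Lrrfip1: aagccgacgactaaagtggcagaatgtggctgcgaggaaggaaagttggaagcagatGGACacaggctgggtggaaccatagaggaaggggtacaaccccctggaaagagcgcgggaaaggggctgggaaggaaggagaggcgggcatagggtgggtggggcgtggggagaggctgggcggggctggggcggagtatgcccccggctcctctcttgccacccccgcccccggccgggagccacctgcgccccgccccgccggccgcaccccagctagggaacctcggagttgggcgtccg
Trerf1: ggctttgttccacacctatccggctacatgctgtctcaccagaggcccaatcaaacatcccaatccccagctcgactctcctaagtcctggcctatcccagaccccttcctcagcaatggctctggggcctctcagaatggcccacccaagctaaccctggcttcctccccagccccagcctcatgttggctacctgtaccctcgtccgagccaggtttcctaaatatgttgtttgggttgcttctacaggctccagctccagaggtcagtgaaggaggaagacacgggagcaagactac
Tenm3: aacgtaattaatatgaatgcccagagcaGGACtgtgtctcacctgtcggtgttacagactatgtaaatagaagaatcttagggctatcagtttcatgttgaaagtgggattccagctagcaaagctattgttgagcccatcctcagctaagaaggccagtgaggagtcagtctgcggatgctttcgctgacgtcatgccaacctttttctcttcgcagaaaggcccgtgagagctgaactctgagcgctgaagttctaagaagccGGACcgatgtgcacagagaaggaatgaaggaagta
Magi1: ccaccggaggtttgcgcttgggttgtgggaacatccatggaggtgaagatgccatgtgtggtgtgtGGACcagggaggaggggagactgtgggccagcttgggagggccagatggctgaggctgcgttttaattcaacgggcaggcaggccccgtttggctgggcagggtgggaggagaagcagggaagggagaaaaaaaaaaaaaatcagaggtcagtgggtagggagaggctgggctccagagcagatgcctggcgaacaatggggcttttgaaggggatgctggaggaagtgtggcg
All 5 windows held a summit in all 8 caRNA lists. None overlapped an mRNA peak except that of Trerf1, which had a peak with a fold enrichment of 5.76 in 1 mRNA list, Mettl3 knockout 2.

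The Stox2 window is chr8:47352299-47352598 on the minus strand, with its start at 26.3% of the gene body. Stox2 encodes a storkhead-box protein, and its summits lay from 4 bases before to 15 bases after the start. Fold enrichment, the authors' ratio of immunoprecipitated signal over background for each peak, was 8.39 and 10.3 in the Mettl14 knockouts, 10.6 and 10.7 in the Mettl14 controls, 13.1 and 10.8 in the Mettl3 knockouts and 10.03 and 9.14 in the Mettl3 controls. These values stand side by side as descriptions of each list, and the peak was present in knockout and control libraries of both lines. The Stox2 window held no GGAC on the gene strand. Peaks can reach beyond the printed windows, so a GGAC under a peak but outside its window would not be seen. The Lrrfip1 window, chr1:91053194-91053493 on the plus strand at 42.8% of the body, held 1 GGAC and had folds of 4.96 to 10.4, with summits at positions -241 to -222 relative to the start. Lrrfip1 encodes an RNA-binding protein that takes part in innate sensing of nucleic acids. In Trerf1, a zinc finger regulator of transcription, the window was chr17:47229980-47230279 on the plus strand at 40.3% of the body and the caRNA folds were 4.45 to 8.60.

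The Tenm3 window, chr8:48674641-48674940 on the minus strand at 65.4% of the body, held 2 GGAC and had folds of 3.56 to 7.86. Tenm3 encodes a teneurin, a large transmembrane adhesion protein. The Magi1 window, chr6:93912914-93913213 on the minus strand at 61.0% of the body, held 1 GGAC and had the lowest folds of the 5, from 1.91 to 3.61, with summits at positions -187 to -111 relative to the start. Magi1 encodes a scaffold protein of cell junctions. Searched on the gene strand, GGAC was present in 65.6% of all 32851 RefSeq promoter windows of 300 bases and its reverse complement GTCC in 66.1%, so its presence in 3 of the 5 windows does not set them apart. Within the middle of long genes, 401 genes held 538 such internal starts. The span from 250 bases before to 1000 bases after these starts covered 0.222% of the middle bases and took in 1.69% ± 0.238 of sense deep peaks in caRNA and 2.11% ± 0.399 in mRNA (SD, n = 8 lists each).

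A microRNA hairpin lay wholly under deep peaks of 6 caRNA lists and no mRNA list in Ryr1, the skeletal muscle calcium release channel. The hairpin, at chr7:29083636-29083694 on the minus strand, is printed with GGAC in capitals because it holds that motif at 2 places within 59 bases. The peaks over it had folds of 6.53 to 9.77, and their summits lay 56 to 79 bases outside the hairpin.
Mir1963: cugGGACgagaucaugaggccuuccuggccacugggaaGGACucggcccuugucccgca
The hairpin of Mir7021 in Prdm2, a histone methyltransferase gene, at chr4:143136100-143136162 on the minus strand, lay under deep peaks of 5 caRNA and 2 mRNA lists. Their folds were 2.65 to 5.18 and their summits lay 104 to 125 bases outside the hairpin, which held no GGAC.

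Deep peaks took a larger share of the chromatin lists than of the mRNA lists in both lines and both genotypes. In caRNA they made up 11.3% and 11.5% of the peaks of the Mettl14 knockouts, 10.7% and 10.7% of the Mettl14 controls, 10.4% and 10.3% of the Mettl3 knockouts and 8.37% and 8.63% of the Mettl3 controls. In mRNA the shares were 5.63% and 5.56% in the Mettl14 knockouts, 4.90% and 4.92% in the Mettl14 controls, 6.07% and 6.12% in the Mettl3 knockouts and 6.17% and 5.69% in the Mettl3 controls. The lowest caRNA list thus lay above the highest mRNA list. Averaged over the 4 pairs of line and genotype, caRNA exceeded mRNA by 4.61 percentage points (exact two-sided permutation test over libraries within each pair, p = 0.00154, adjusted p = 0.00772 over 15 tests). This p is the smallest that the 1296 relabellings allow.

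The same held among the peaks of long genes alone, which sets aside how much of a list falls in long genes. Deep peaks were 45.8% to 50.2% of long-gene peaks in the 8 caRNA lists and 30.7% to 35.2% in the 8 mRNA lists, while the middle made up 60.1% of long-gene bases. The difference averaged 14.9 percentage points (exact permutation test, adjusted p = 0.00772). A deep peak was present in 1031 to 1263 long genes per caRNA list and in 432 to 722 per mRNA list, a mean difference of 577.6 genes (exact permutation test, adjusted p = 0.00772). The number of genes also follows the length of a list, which was greater in caRNA. Among the 10000 strongest peaks of each list, the mean difference was smaller, at 218.5 genes (exact permutation test, adjusted p = 0.00579). With the 2 mRNA Mettl14 controls left out, an option chosen after the data were seen, the 3 differences were 4.21 points, 13.9 points and 505.0 genes (exact permutation test, adjusted p = 0.0463 each).

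**Figure D1:**
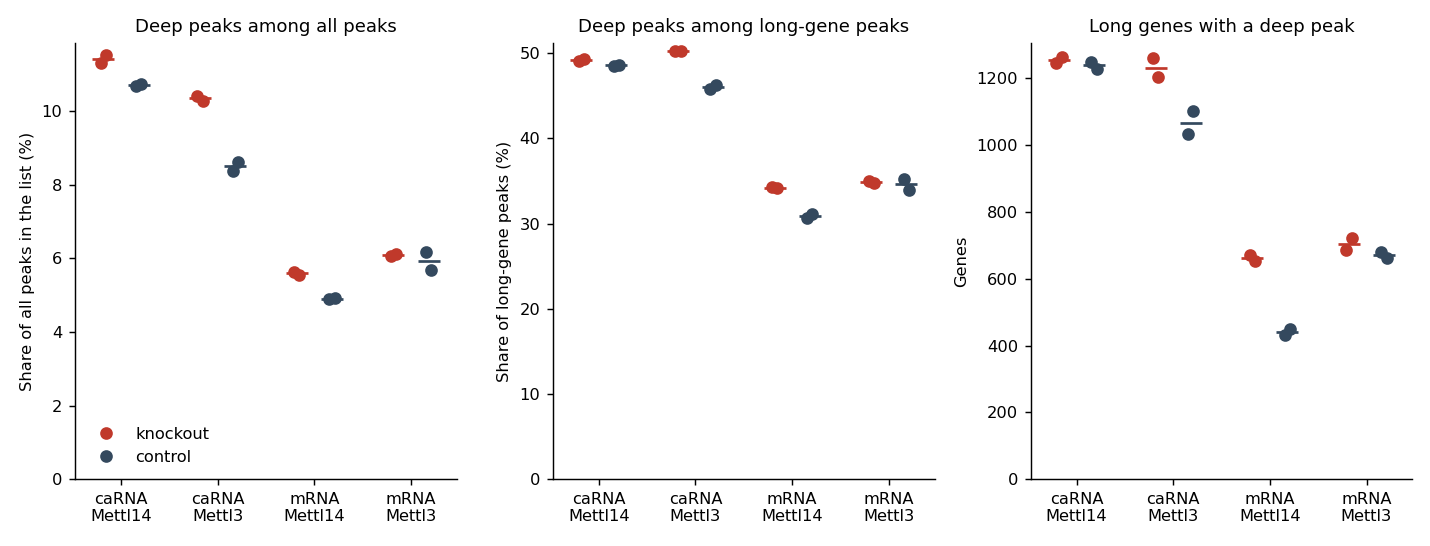
Deep peaks in each of the 16 lists, by RNA type and line, with knockouts in red left of controls in dark grey; points are libraries and lines are means of 2. From left, the axes give the share of all peaks (%), the share of long-gene peaks (%) and the number of long genes; all caRNA points lie above all mRNA points, and knockouts lie above controls without overlap in 3 of 4 comparisons in each of the panels.

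Knockout libraries had a somewhat larger share of deep peaks than their controls. In caRNA the Mettl3 knockouts averaged 10.4% ± 0.0994 and their controls 8.498% ± 0.188 (SD, n = 2 each). The Mettl14 knockouts averaged 11.4% ± 0.164 and their controls 10.7% ± 0.0547 in caRNA, and 5.60% ± 0.0534 and 4.91% ± 0.00838 in mRNA. In those 3 comparisons the groups did not overlap. In mRNA of the Mettl3 line the knockouts averaged 6.10% ± 0.0346 and the controls 5.93% ± 0.342, and their values overlapped. Over the 4 comparisons the knockouts were higher by 0.852 percentage points (exact permutation test, adjusted p = 0.0139), by 2.12 points of long-gene peaks (adjusted p = 0.0154) and by 108.9 genes (adjusted p = 0.0116). Without the 2 mRNA Mettl14 controls the same differences were 0.908 points, 1.73 points and 72.0 genes and none passed (exact permutation test, adjusted p = 0.0833, 0.0926 and 0.0694, with a smallest possible unadjusted p of 0.00926).

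The knockout difference itself was not shown to depend on RNA type or line. It was larger in caRNA than in mRNA by 0.850 percentage points of all peaks (exact permutation test, p = 0.202, adjusted p = 0.433) and smaller in the Mettl14 than in the Mettl3 line by 0.318 points (result coded as -0.318, p = 0.539, adjusted p = 0.714). The Mettl14 and Mettl3 lines differed on average by 0.437 points (exact permutation test, adjusted p = 0.521). By number of genes with a deep peak both interactions had the other sign, -35.75 genes for caRNA minus mRNA and 19.25 for the Mettl14 minus the Mettl3 line (exact permutation test, adjusted p = 0.714 and 0.779). The line contrast was -0.716 points of long-gene peaks and -18.9 genes (exact permutation test, adjusted p = 0.558 and 0.714).

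Along the gene, deep peaks did not fall evenly. For the 1866 long genes whose strand is known, the body was cut into 10 equal parts from the 5′ end, each holding about the same number of bases. In caRNA the first part held 14.1% ± 0.555 of long-gene peaks and the last 20.04% ± 2.76, and within the middle the share was lowest in the third part, at 6.94% ± 0.431, and highest in the eighth, at 9.14% ± 0.169 (SD, n = 8 lists). In mRNA the last part alone held 41.2% ± 4.21, the fourth held 3.98% ± 0.479, the lowest of all, and the eighth held 8.21% ± 0.199. Both RNA types thus had more deep peaks towards the 3′ side of the middle. Per megabase of the eighth part, caRNA lists had 14.0 ± 1.58 peaks and mRNA lists 5.25 ± 0.844.

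**Figure D2:**
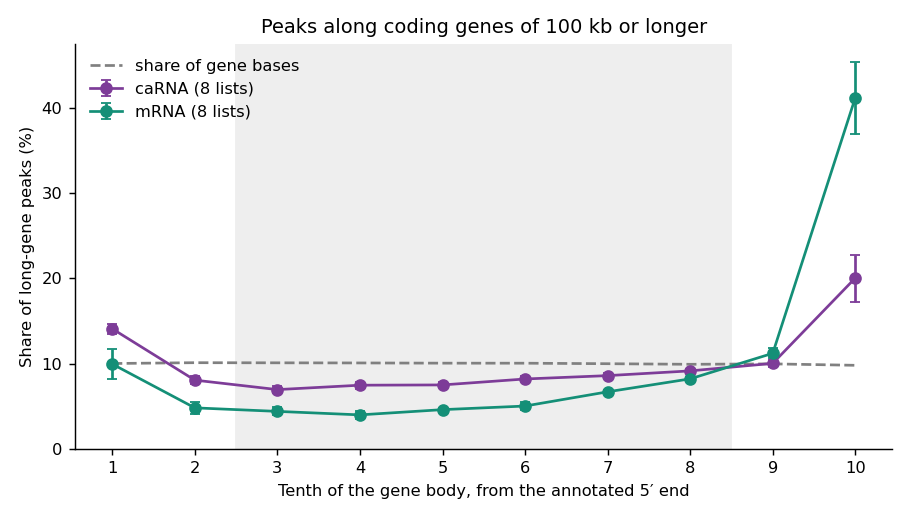
Share of long-gene peaks (%) in each of 10 equal parts of the gene body, from the annotated 5′ end of the 1866 long genes of known strand, for caRNA (purple) and mRNA (green); points are means of 8 lists, bars are SD, the dashed line is each part's share of gene bases and the grey band marks the middle 20% to 80%. The mRNA profile peaks at 41.2% in the last part, while caRNA holds 6.94% to 9.14% in every part of the middle.

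Gene length beyond the threshold made little difference to the caRNA share and the edges of the rule were smooth. Of long-gene peaks in caRNA, 48.5% ± 2.66 lay deep in genes of 100 to 110 kb and 48.9% ± 1.45 in genes above 500 kb, and the share was 47.1% ± 1.93 in genes of 90 to 100 kb, just outside the rule (SD, n = 8 lists). In mRNA the same classes held 36.4% ± 1.78, 33.5% ± 4.37 and 35.99% ± 2.40. Tut4, at 100006 bases the shortest gene included, held 4 regions in its middle, and Arsg, at 99998 bases the longest left out, held none. At the inner edges, 1569 peaks had summits between 20% and 22% of the body and 1592 between 18% and 20%. Between 78% and 80% there were 1560, and 1617 between 80% and 82%.

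Deep peaks were about as strong as other peaks and slightly narrower. The median fold percentile of deep peaks within their own list was 48.9 to 52.2 in caRNA and 51.9 to 55.9 in mRNA, where 50 is the middle of the list. Their median width was 214 to 278 bp in caRNA and 212 to 295 bp in mRNA, against 239 to 310 bp and 249 to 313 bp for all peaks of the same lists. Where the gene's strand is known, most deep peaks lay on it, and 4.44% to 9.63% were antisense in caRNA.

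Antisense deep peaks stood out in mRNA of the Mettl14 knockouts. They were 16.1% and 15.1% of deep peaks there, against 9.25% and 11.1% in the Mettl14 controls. In the Mettl3 line the knockouts had 4.58% and 3.61% and the controls 7.79% and 6.31%, so the groups did not overlap in either line but lay in opposite order. In the ends of the same long genes the Mettl14 knockouts had 9.47% and 9.08% antisense peaks and their controls 6.42% and 6.91%. The Mettl3 knockouts had 4.57% and 4.65% in the ends and their controls 5.98% and 5.99%. The ends thus had the same opposite order without overlap, and so did other coding genes. There the Mettl14 knockouts had 9.37% and 9.07% against 8.25% and 8.91% in controls. The Mettl3 knockouts had 6.07% and 6.02% there against 6.71% and 6.57% in controls. In caRNA the antisense share of deep peaks was lower in knockouts than in controls in both lines. It was 7.48% and 7.96% against 9.63% and 9.36% in the Mettl14 line. In the Mettl3 line it was 4.60% and 4.44% against 6.17% and 5.96%. The ends of the same long genes also had lower antisense shares in caRNA of knockouts. Their means were 7.12% against 9.26% in the Mettl14 line and 5.29% against 6.63% in the Mettl3 line. For other coding genes the caRNA means were 8.62% against 11.5% in the Mettl14 line and 6.24% against 8.72% in the Mettl3 line. The lower caRNA share was thus not particular to deep peaks. These shares were looked at after the data were seen and were not tested. Among the deep regions gained in Mettl14 knockout mRNA, 62 of 289 with a known strand were antisense, against 41 of 465 retained ones. In mRNA of the Mettl3 line 15 of 70 lost regions were antisense, against 25 of 682 retained and 3 of 88 gained ones. Antisense counts of lost, gained and retained regions outside the deep ones are not given here. Whether these counts are particular to deep regions was therefore not tested.

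Most deep regions belonged to chromatin RNA. Of the 8523 regions, 507 had a peak in all 8 caRNA and no mRNA list, or 5.95%, where 3.22% of all 80081 regions did. None had a peak in all 8 mRNA and no caRNA list, where 0.116% of all regions did. In all 16 lists, 353 had a peak, or 4.14%, where 8.39% of all regions did. No mRNA list held a peak in 73.3% of deep regions, compared with 56.9% of regions in the ends of long genes and 56.6% of all regions. The 507 regions seen in chromatin RNA alone lay in 346 genes with a median length of 213.2 kb, and had a median width of 377 bp and a median fold of 6.18. The 353 present everywhere lay in 263 genes with a median length of 152.5 kb, and had a median width of 877 bp and a median fold of 7.36. By gene, 150 of the 1599 had a deep peak in all 8 caRNA and no mRNA list, where 4.25% of 10041 coding genes of any length with a peak in the middle of their body had that pattern there, and none of the 1599 had the opposite.

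The genes with the most regions of the chromatin pattern each held several separate sites. Tenm4, a teneurin, had 6 such regions, and Pde4d, a cAMP phosphodiesterase, Exoc4, a subunit of the exocyst that tethers secretory vesicles, and Gpc6, a glypican, had 5 each. Rad51b, a homologous recombination protein, Slit2, a secreted guidance ligand, Ptprk, a receptor tyrosine phosphatase, and Immp2l, a mitochondrial inner membrane peptidase, had 4 each. The strongest in Exoc4 was chr6:33537506-33538083 at 39.8% of the gene, on the plus strand as the gene, with a median fold of 13.0 and a range of 4.54 to 17.6 over the 8 caRNA lists. In Slit2 the region chr5:48104150-48104529 had a median fold of 13.2 and a range of 5.78 to 15.7. In Gpc6 the region chr14:117250188-117250469 had a median fold of 11.6 and a range of 7.92 to 16.3. Gpc6 had 9 and 11 deep peaks in Mettl14 knockouts, 13 and 10 in Mettl14 controls, 9 and 7 in Mettl3 knockouts and 6 and 7 in Mettl3 controls in caRNA, and none in any mRNA list. In Pde4d 4 of the 5 regions were on the gene strand and the fifth, chr13:109685486-109685892, was antisense with a median fold of 8.93.

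The deep regions present in all 16 lists included some of the strongest peaks of any list. Zfat, a zinc finger transcription regulator, led with chr15:68178740-68181278, whose median fold was 22.9 in caRNA and 18.5 in mRNA. Nectin3, an adhesion molecule, followed with chr16:46448273-46448974 at 45.0% of the gene and median folds of 19.5 in caRNA and 21.3 in mRNA. The regions of Wdr44, a partner of the trafficking GTPase RAB11, Cep85l, a centrosomal protein, Dmxl2, a regulator of the vacuolar proton pump, Pid1, an adaptor in insulin signalling, and Kctd1, a repressor of transcription, had median folds of 16.6 to 21.3 in caRNA and 13.9 to 19.9 in mRNA. Their median percentile within a list was 98.8 or above.

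Peak number per gene was uneven. Of the 1599 genes, 314 had 1 deep region, 707 had 2 to 5, 383 had 6 to 10 and 195 had over 10, and these 195 held 3018 regions or 35.4% of all. Dst, a linker of the cytoskeleton, had the most, with 49. In caRNA it had 29 and 33 deep peaks in Mettl14 knockouts, 33 and 30 in Mettl14 controls, 31 and 28 in Mettl3 knockouts and 24 and 26 in Mettl3 controls, and 17 to 19 in the mRNA lists. Cacna1a, a neuronal calcium channel subunit, followed with 37 regions, Exoc4 with 36 and Wwox, an oxidoreductase at a common fragile site, with 35. In mRNA, Exoc4 had 5 and 5 in Mettl14 knockouts, none in Mettl14 controls, 6 and 5 in Mettl3 knockouts and 6 and 6 in Mettl3 controls. Syne2, a nuclear envelope linker, had 33 regions, with 19 and 19 caRNA peaks in Mettl3 knockouts against 10 and 10 in their controls, and 20 and 17 in Mettl14 knockouts against 17 and 18 in their controls. Tenm4 had 31 regions, with 22 and 23 caRNA peaks in Mettl14 knockouts against 15 and 16 in their controls, and 20 and 18 in Mettl3 knockouts against 9 and 13 in their controls. In Tenm4 the knockouts did not overlap their controls in either line, and how many of the 1599 genes do the same is not given here. Per gene with a deep peak, caRNA lists averaged 3.64 deep peaks in Mettl3 knockouts and 3.11 in their controls. In the Mettl14 line they averaged 3.53 in knockouts and 3.63 in controls. Ttn, the giant muscle protein titin, had 29 regions and AW554918 had 28.

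Some of these genes were marked mainly in 1 line. Gucy1a2, a subunit of soluble guanylate cyclase, had 22 and 23 deep peaks in caRNA of Mettl14 knockouts and 33 and 33 in Mettl14 controls, against 2 and 2 in Mettl3 knockouts and 3 and 5 in Mettl3 controls. Hs6st3, a heparan sulfate sulfotransferase, had 22 and 22 in Mettl14 knockouts and 28 and 30 in Mettl14 controls, against 3 and 2 in Mettl3 knockouts and 2 and 3 in Mettl3 controls. In both genes every caRNA list of the Mettl14 line lay above every caRNA list of the Mettl3 line. The caRNA counts of Lin28b and Msh3, given below, were separated in the same way. How many of all genes with a deep peak were so separated is not given here. In mRNA, Gucy1a2 had 1 to 4 peaks per list and Hs6st3 had at most 1.

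**Figure D3:**
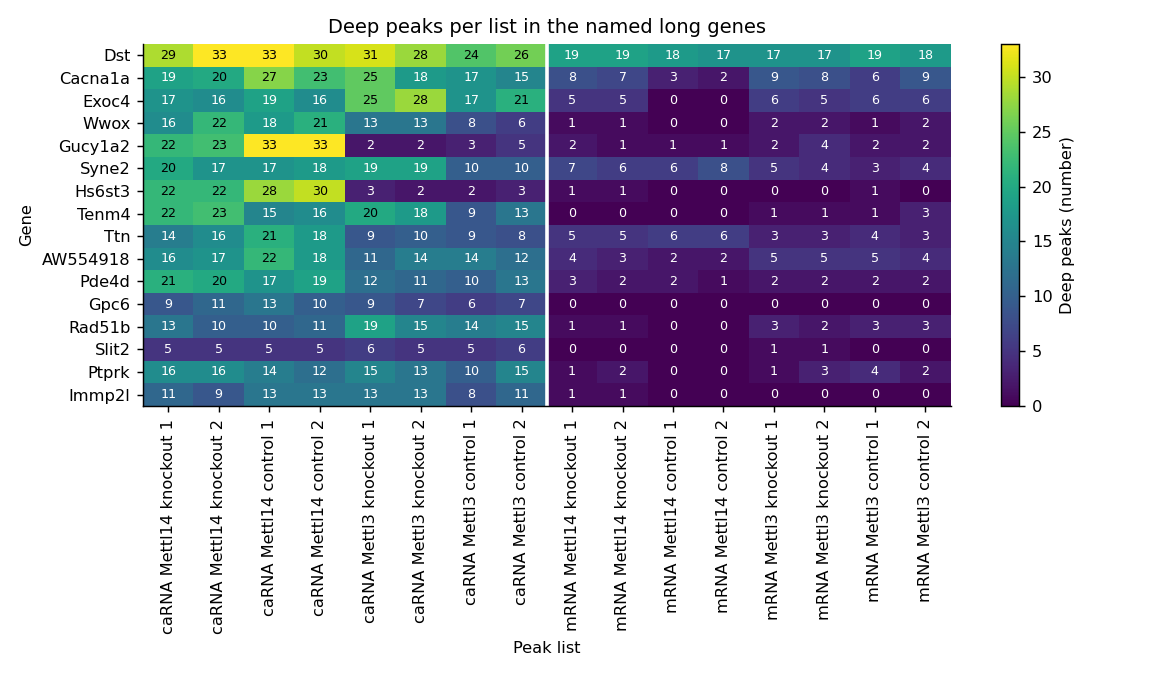
Number of deep peaks (colour and printed number) in each of 16 lists (columns, caRNA left of the white line and mRNA right of it, knockouts left of their controls) for 16 long genes (rows): the 10 with the most regions and 6 more with the most regions seen in chromatin RNA alone. Dst holds 24 to 33 in caRNA and 17 to 19 in mRNA, while Gucy1a2 and Hs6st3 hold 22 to 33 in the caRNA lists of the Mettl14 line and 2 to 5 in those of the Mettl3 line.

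Most deep regions of control cells kept a peak in the knockouts. How far the kept peaks are m6A or other antibody signal was not tested. A region was called lost where both controls and neither knockout had a peak, gained in the opposite case, and retained where all 4 libraries had one. In caRNA of the Mettl14 line, 2803 of 3823 deep control regions were retained, or 73.3% (72.4% of all regions), and 597 were lost, or 15.6% (15.7% of all regions). In caRNA of the Mettl3 line 2113 of 2679 were retained, or 78.9% (73.6% of all regions), and 351 were lost, or 13.1% (16.4%). For mRNA of the Mettl14 line, 606 of 677 were retained, or 89.5% (91.4%), and 53 lost, or 7.83% (6.33%). In mRNA of the Mettl3 line 885 of 1095 were retained, or 80.8% (80.3%), and 91 lost, or 8.31% (10.2%). Loss of deep regions was thus near the share of all regions in caRNA of the Mettl14 line, above it in mRNA of the Mettl14 line and below it in both RNA types of the Mettl3 line, a description with no test. For mRNA of the Mettl14 line, the share of deep regions lost was 14.2% without control 1 (10.5% of all regions) and 12.3% without control 2 (9.02%). For mRNA of the Mettl3 line it was 13.0% and 14.5% without knockout 1 or 2 (14.6% and 15.3% of all regions), 13.3% without control 1 (16.3%) and 16.4% without control 2 (15.5%), so that without control 2 the deep share was above that of all regions.

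The gained share of deep regions was above that of all regions in 3 of the 4 comparisons, again with no test. In caRNA of the Mettl3 line 829 of 3501 deep knockout regions were gained, or 23.7%, against 18.4% in the ends of long genes and 16.9% of all regions. In mRNA of the Mettl14 line 398 of 1113 were gained, or 35.8%, against 24.9% in the ends and 25.6% of all regions, where the control lists were the shortest. In caRNA of the Mettl14 line 411 of 3545 were gained, or 11.6%, against 9.64% in the ends and 9.16% of all regions. In mRNA of the Mettl3 line 112 of 1131 were gained, or 9.90%, close to the 9.95% of all regions. Without caRNA Mettl3 knockout 2 the gained share in that comparison was 35.8% (27.4% of all regions). Without caRNA Mettl14 knockout 1 or 2 it was 19.7% or 17.9% (15.8% or 14.6% of all regions). It was 17.9% or 17.3% without knockout 1 or 2 and 15.8% without either control in mRNA of the Mettl3 line, where all regions had 14.4% to 17.1%. With the 10000 strongest peaks of each list, 14.8% of deep regions were gained in mRNA of the Mettl14 line (12.3% of all regions) and 20.3% in caRNA of the Mettl14 line (14.7%).

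**Figure D4:**
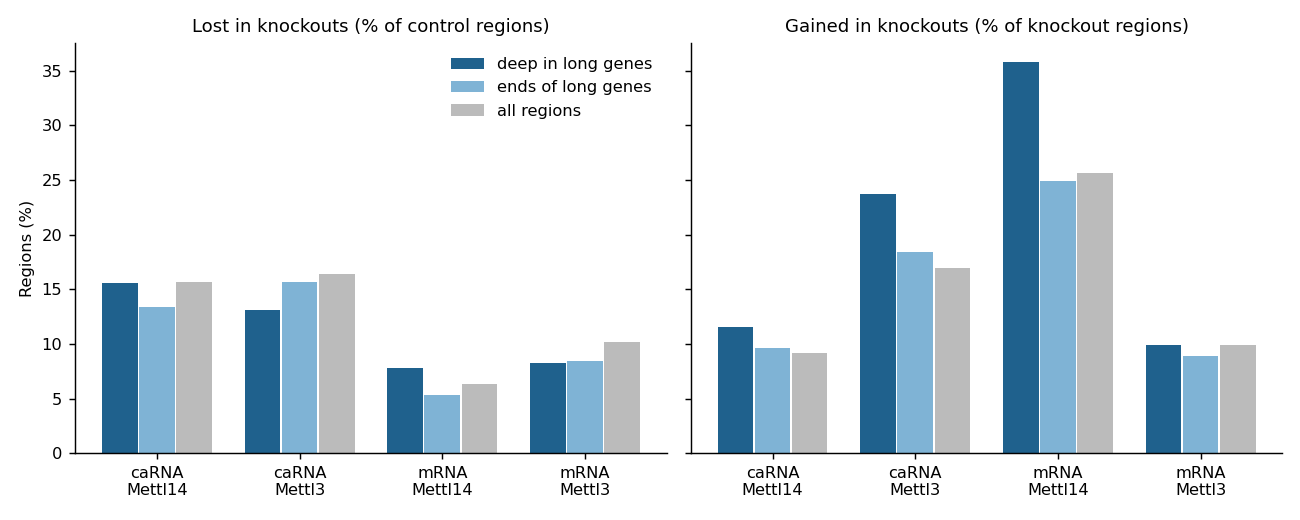
Regions lost (left, % of the regions both controls had) and gained (right, % of the regions both knockouts had) in each comparison, for deep regions (dark blue), the ends of long genes (light blue) and all regions (grey). Gained deep regions reach 35.8% in Mettl14 mRNA and 23.7% in Mettl3 caRNA, above 25.6% and 16.9% of all regions; each bar is 1 count over 4 lists and has no error bar.

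Lost and gained deep peaks were weaker than retained ones. The calling rule itself favours this, since a retained region needs a peak in all 4 lists. The median fold percentile was 30.6 for lost, 33.1 for gained and 63.2 for retained deep regions in caRNA of the Mettl14 line, and 40.3, 42.3 and 65.4 in caRNA of the Mettl3 line. In mRNA it was 36.7, 47.0 and 63.7 in the Mettl14 line and 48.4, 47.2 and 60.5 in the Mettl3 line. In caRNA, 118 genes had a lost region in both lines, which is 28.3% of the 417 of the Mettl14 line and 46.5% of the 254 of the Mettl3 line; of all 1599 genes with a deep peak, 15.9% had a lost region in the Mettl3 line and 26.1% in the Mettl14 line. A gained region in both was found in 167 genes, 50.6% of the 330 of the Mettl14 line and 30.5% of the 547 of the Mettl3 line, where 34.2% of all 1599 had one in the Mettl3 line and 20.6% in the Mettl14 line. For mRNA, 3 genes had a lost region in both lines, 6.67% of 45 of the Mettl14 line and 3.70% of 81 of the Mettl3 line. Of all 1599 genes, 5.07% had a lost region in the Mettl3 line and 2.81% in the Mettl14 line. In mRNA 29 genes had a gained region in both, 9.42% of 308 of the Mettl14 line and 27.6% of 105 of the Mettl3 line. Of all 1599, 6.57% had a gained region in the Mettl3 line and 19.3% in the Mettl14 line. Of the 1599 genes, 611 had no deep peak in any mRNA list and could not have a lost or gained region there. The mRNA shares over all 1599 genes are therefore lower than over the genes that could have one. They cannot show whether the mRNA overlaps are above background. The overlaps between the lines were not tested.

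The strongest gained regions in caRNA are given with the deep peaks of their whole gene, a count that the gained region itself adds to. In the Mettl3 line Smarca2, the BRM ATPase of the SWI/SNF remodeller, gained chr19:26651520-26651691 with folds of 9.12 and 9.24, and its deep peaks numbered 7 and 6 in knockouts against 1 and 2 in controls. Myo1e, an unconventional myosin, gained chr9:70353163-70353350 with folds of 9.74 and 10.2 and had 9 and 6 deep peaks in knockouts against 3 and 3 in controls. Atxn1, a polyglutamine protein and transcription cofactor, gained chr13:45795524-45795732 with folds of 9.82 and 8.52 and had 14 and 11 against 6 and 8. Exoc6 and Cep128, an exocyst subunit and a centriole protein, were the other 2 of the leading 5. In the Mettl14 line Alms1, a ciliary protein, led with chr6:85624498-85624654 at folds of 9.84 and 9.43, followed by Mbnl2, an RNA-binding splicing regulator, Ankrd12, Ptprg, a receptor tyrosine phosphatase, and Camkmt, a calmodulin methyltransferase, at folds of 7.25 to 9.67. Camkmt had 3 and 4 deep peaks in knockouts against 4 and 5 in controls. Atxn1 also had 9 and 11 deep peaks in Mettl14 knockouts against 5 and 4 in controls in caRNA. Its knockouts thus lay above controls in both lines, a pattern whose share among all genes with a deep peak is not given here.

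The strongest lost regions in caRNA of the Mettl3 line were in Usp34, a ubiquitin protease, Atp2b2, a plasma membrane calcium pump, Rere, a nuclear receptor corepressor, and Ric8b, a chaperone of G protein alpha subunits, with folds of 8.08 to 9.30 in the controls. The lost region of Ric8b, chr10:84957896-84958095, had folds of 8.08 and 9.30 in caRNA controls, and the overlapping mRNA region, chr10:84957932-84958090, had 6.54 and 6.68 in mRNA controls and was lost there too. In the Mettl14 line the strongest were in Scn3a, a sodium channel subunit, Crtac1, an extracellular matrix protein, Ext2, a heparan sulfate polymerase, Lin28b, a repressor of let-7 maturation, and Hs6st3, with folds of 6.70 to 9.11. Crtac1 had no deep peak left in the Mettl14 knockouts against 3 and 3 in their controls, while Usp34 still had 6 and 7 in Mettl3 knockouts against 3 and 4, so a lost region did not go with fewer deep peaks in every gene. By number of lost regions, a choice made after the values were seen, Gphn, the synaptic scaffold gephyrin, led in caRNA of the Mettl3 line with 7. It had 1 and 2 deep peaks in Mettl3 knockouts against 9 and 10 in controls, and 13 and 14 in Mettl14 knockouts against 18 and 16 in controls.

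In mRNA the strongest deep regions to be lost or gained differed between the lines. Those lost in the Mettl3 line were in Zfp423, a transcription factor, Dner, a Notch ligand, where the peak was antisense, Sipa1l3, Ric8b and Tspan7, with folds of 6.34 to 9.96 in controls. Those gained there were in Stk3, a kinase of the Hippo pathway, Cdk5rap2, a centrosomal protein, Zfp978, Rbfox2, a splicing factor, and Baz2b, a chromatin reader, with folds of 6.99 to 12.6. In the Mettl14 line the lost regions were in Fam172a, Lrp6, a Wnt coreceptor, Smarca2, Fer, a tyrosine kinase, and Akap13, a kinase anchor, with folds of 7.51 to 9.78. The gained ones were in Dpysl3, a regulator of axon growth, Kcnj6, a potassium channel, and Fnip2, a folliculin partner, both antisense to the gene, Med13l, a Mediator subunit, and Clasp1, a microtubule-binding protein, with folds of 12.5 to 17.4. Those gained in the Mettl14 line were absent from the shortest lists of the series.

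Deep peaks were found in stem cell regulators and chromatin genes alike. Of the pluripotency list, all 11 long genes had one, where 65.9% of all long genes did, and the list held 101 regions. The 8 gene lists were chosen with earlier results of these data known, so their coverage is a description only. The same 65.9% stands beside each list below. Esrrb, a nuclear receptor of the naive network, had 8 and 11 deep peaks in caRNA of Mettl14 knockouts and 9 and 11 in their controls, and 7 and 6 in Mettl3 knockouts and 4 and 5 in their controls, with 1 to 4 in every mRNA list. Lin28b had 7 and 7 in Mettl14 knockouts and 7 and 5 in their controls, and 1 and 2 in Mettl3 knockouts and 1 and 1 in their controls, with at most 1 in mRNA. Zfp462, Zfhx3 and Tead1, transcription regulators, had deep peaks in all 16 lists, as did Esrrb. Tcf7l1, the Wnt pathway repressor, Nr5a2, a nuclear receptor, and Jarid2, a partner of Polycomb, had none in mRNA. In caRNA of the Mettl3 line the list lost 4 of 29 control regions and gained 13 of 44 knockout regions, and in that of the Mettl14 line it lost 5 of 41 and gained 4 of 38. Over all deep regions, 13.1% were lost and 23.7% gained in the Mettl3 line and 15.6% and 11.6% in the Mettl14 line.

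Of the chromatin regulators all 28 long genes had a deep peak, 23 of them in all 8 caRNA lists and 15 in all 8 mRNA lists, over 259 regions. Of all 2428 long genes, 835 had one in all 8 caRNA lists and 312 in all 8 mRNA lists. Zmynd8, a reader of acetylated histones, had the most, with 13 to 18 per caRNA list and 6 to 11 per mRNA list. Chd9, a chromodomain helicase, had 7 to 12 per list in both RNA types, whereas Auts2, a partner of Polycomb, had 7 to 13 in caRNA and at most 1 in mRNA. Arid1b, a SWI/SNF subunit, had 4 to 7 in caRNA and at most 1 in mRNA. In caRNA of the Mettl3 line the list lost 12 of 104 control regions and gained 29 of 131 knockout regions, where 13.1% of all deep regions were lost and 23.7% gained. In caRNA of the Mettl14 line it lost 17 of 134 and gained 11 of 127, where 15.6% of all deep regions were lost and 11.6% gained.

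All 10 long genes of DNA repair and cohesion had a deep peak, and 4 of them had none in mRNA, as did 611 of the 1599 genes with a deep peak. Xrcc4, a ligase partner in end joining, had 6 and 7 caRNA deep peaks in Mettl14 knockouts against 11 and 10 in their controls, and 6 and 3 in Mettl3 knockouts against 7 and 6 in their controls. Msh3, a mismatch repair protein, had 6 and 7 in Mettl14 knockouts, 6 and 6 in their controls, 2 and 1 in Mettl3 knockouts and 2 and 2 in their controls. All 14 long RNA-binding genes had a deep peak as well, with Tnrc6b, a scaffold of microRNA silencing, at 5 to 9 per caRNA list and 2 to 4 per mRNA list. Of the kinases and phosphatases 12 of 14 had one, with Ptprk at 10 to 16 in caRNA and 0 to 4 in mRNA.

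The 4 long genes of the m6A list all had a deep peak. Fto, an RNA demethylase that can remove m6A, had 9 and 9 in caRNA of Mettl14 knockouts, 10 and 7 in their controls, 6 and 6 in Mettl3 knockouts and 5 and 6 in their controls, and in mRNA 3 and 3, 1 and 1, 4 and 3, and 2 and 1 in the same 4 groups. Igf2bp2, an m6A reader, had 1 to 5 in caRNA and at most 1 in mRNA. Igf2bp3, a related reader, and Mettl15, a mitochondrial ribosomal RNA methyltransferase that is not an m6A writer, had at most 2 and no mRNA peak. Mettl3 and Mettl14 are not long genes and hold no deep peak by the rule.

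Of the 8 lists, that of cell adhesion and the synapse had the lowest share of genes with a deep peak, 15 of 27 or 55.6%, with 31 regions in all and 2 genes, Lrp1b and Pcdh9, in all 8 caRNA lists. Pcdh9, a protocadherin, had 1 to 6 per caRNA list and 1 to 7 per mRNA list. Rbfox1, at 1528 kb, Nrxn3, at 1612 kb, and Dlg2, at 1973 kb, were among the 12 with none. Of 13 genes of common fragile sites 12 had a deep peak, with 115 regions, 35 of them in Wwox, 21 in Immp2l and 20 in Gpc6. Fhit, a diadenosine hydrolase, had up to 10 in caRNA and none in mRNA, while Ctnna3, an alpha-catenin, had none at all.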

How the data were processed

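Each immunoprecipitation library came with its own deposited peak list that names a strand for every peak, so replicates were not pooled. The submitters' processing notes name mm10, CASAVA, Trimmomatic 0.38, HISAT2 2.1.0 and SAMtools 1.9. For the peak caller, its background and its settings, the name and values were not given in the sources used here. The deposited fold enrichment is a ratio per peak over the background of the authors' caller. Significance is held in the deposited −log10 p, −log10 q and score columns, and no list had a −log10 q under 2.00. Input samples were not analysed here.

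Summits were placed in gene bodies of the GRCm38.p6 RefSeq table, the build of mm10, with 49976 genes, 21896 of them protein-coding; strand came from the RefSeq promoter table for 1866 of 2428 long genes. Peaks on spike-in RNA, 2 to 5 per list, were set aside. Measures per list were compared with exact two-sided permutation tests that permuted library labels within 4 strata of 2 against 2 libraries (1296 relabellings, smallest p 0.00154), with Benjamini-Hochberg adjustment over 15 tests (3 measures by 5 contrasts) and a threshold of 0.05. Alone, 2 against 2 libraries cannot go below p = 0.333 in an exact permutation test. Genes were named by rank: the 10 with the most regions, the 5 strongest lost and gained per comparison (by the lower of the 2 folds), the 8 strongest in all 16 lists, the 8 with the most regions in all 8 caRNA and no mRNA lists, and members of 8 gene lists; a few genes that these rules name are not reported here. Members and lists were chosen with earlier results of these data known. Motif and exon measures around summits were not run, since no genome sequence was used here. The tests were tested on simulated data. Python 3.11.15, numpy 2.4.6 and pandas 2.3.3 were used.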

Additional observations from a re-analysis of the deposited data

Results flagged for a closer look

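The difference between the lines in the share of deep peaks ran in opposite directions in the 2 RNA types, in every library. In caRNA the Mettl14 line averaged 11.4% in knockouts and 10.7% in controls, against 10.4% in knockouts and 8.498% in controls of the Mettl3 line. In mRNA the Mettl14 line averaged 5.60% in knockouts and 4.91% in controls, against 6.10% and 5.93% in the Mettl3 line. The line difference in caRNA minus that in mRNA was 2.40 percentage points (exact two-sided permutation test of line labels, adjusted p = 0.00463 over 3 measures, chosen after the data were seen). The opposite order in every library held for that measure alone. For the share of long-gene peaks, where the knockouts of the Mettl14 line averaged below those of the Mettl3 line in both RNA types, it was 2.95 points (same exact test, adjusted p = 0.0417), and for genes with a deep peak 233.75 (adjusted p = 0.00463). The 4 caRNA lists of the Mettl14 line are also the 4 written with up to 7 significant digits, and the part of that difference in file format was not tested.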

How the results depend on the processing

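The excess of deep peaks in caRNA over mRNA passed in all 3 measures under every planned setting. Its size in genes fell from 577.6 to 218.5 with the 10000 strongest peaks of each list. In the Mettl3 line alone, added after the data were seen, the smallest possible p is 0.0556, so nothing could pass: caRNA minus mRNA was 3.41 points, 13.4 points and 460.75 genes, and knockout minus control 1.01 points, 2.24 points and 99.25 genes. The knockout difference no longer passed for the share of long-gene peaks with the 10000 strongest peaks of each list (2.67 points, exact permutation test, adjusted p = 0.0656), for genes at 200 kb or longer (42.5 genes, adjusted p = 0.0694), and for all 3 measures without the mRNA Mettl14 controls (0.908 points, 1.73 points and 72.0 genes). Results that did not pass turned sign in some settings, and the cause was not tested. With the 10000 strongest peaks the gene count gave 16.75 for the line contrast, 75.5 for genotype by RNA type and -44.0 for genotype by line. At 50 kb the line contrast in the share of peaks was -0.15. At 200 kb the share of long-gene peaks gave -1.45 for genotype by RNA type and 1.42 for genotype by line, and the line contrast in genes was 35.75. At 30% to 70% of the body the gene count gave 17.5 and -15.5 for the 2 genotype interactions. Without the mRNA Mettl14 controls the line contrast was 0.28 points of long-gene peaks and 51.0 genes, and the 2 interactions in genes were 57.0 and -81.75. In the Mettl3 line alone genotype by RNA type was 130.5 genes.

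The share of lost deep regions in mRNA of the Mettl14 line was 13.6% when summits within 100 bases counted as shared (12.4% of all regions). With the 10000 strongest peaks, 14.8% were gained in mRNA of the Mettl14 line (12.3% of all regions), 20.3% gained in caRNA of the Mettl14 line (14.7%) and 21.5% lost in caRNA of the Mettl3 line (30.4%). Leaving out each library in turn gave 13.0% to 16.4% lost and 15.8% to 17.9% gained in mRNA of the Mettl3 line, 8.81% to 14.2% lost in mRNA of the Mettl14 line, 29.9% to 35.8% gained in caRNA of the Mettl3 line and 16.02% to 19.7% gained in caRNA of the Mettl14 line; by construction, 1 library fewer has to agree. The genotype by line contrast in long-gene peaks ran from -0.568 to 0.0674 points, above 0 without mRNA Mettl3 control 2. Replicate numbers are not shown to pair the libraries: over 1599 genes, differences between same-numbered libraries correlated at -0.0449 to -0.0101. With the replicate number as a block, the knockout difference stayed at 0.852 points with an adjusted p of 0.0391, and the block changed no call. Depth is unknown and limits what a missing peak shows. The planned motif and exon measures were not run.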
